A study of Mus musculus with 5 samples.

Results

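The transcription factor genes that start and maintain the endocrine programme of the pancreas and gut were followed in mouse embryonic stem cell-derived cells. The 8 genes were listed by name: Neurog3, Insm1, Neurod1, Nkx2-2, Pax4, Pax6, Isl1 and Rfx6. A gene was read through every probe set that the platform annotation gives to that symbol alone, and the brightest of them, by its mean over the 5 arrays, stood for the gene. This gave 7 genes with 15 probe sets, of 18193 genes and 45037 probe sets in all. Rfx6 had no probe set under its own symbol and was not analysed here. The cells were differentiated towards a pancreatic fate on plates coated with gelatin, and the labels name neither the stem cell line nor the agent behind the letters MPA. The groups were cells at day 6 and at day 8 that had received 2 µM MPA from day 5, an exposure of 1 and 3 days, and cells without MPA at day 5, day 6 and day 8, called controls here. Whether controls received a solvent is not stated. Each group had 1 array, so no value carries a spread between cultures, and a difference between 2 arrays is given as a size without a test.

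Endocrine cells of the pancreas and gut arise from epithelial progenitors that briefly express Neurog3, a basic helix-loop-helix factor without which mice form no islet endocrine cells. Notch signalling, through Hes1, keeps Neurog3 off in neighbouring cells. Neurog3 turns on a next layer of factors, among them Neurod1, Insm1, Pax4 and Nkx2-2, and Isl1 and Pax6 then act in the maturing hormone cells. Several of them are also used elsewhere: Neurod1 and Insm1 in neurons, Pax6 in the neural tube and eye, Nkx2-2 in the ventral neural tube, and Isl1 in motor neurons and heart progenitors. Insm1 encodes a zinc-finger factor, Nkx2-2 a homeodomain factor, Pax4 and Pax6 paired-domain factors, and Isl1 a LIM-homeodomain factor.

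The promoters of the 4 genes that were at least 2-fold higher with MPA at day 8 are shown because bHLH factors such as Neurog3 and Neurod1 bind the E-box CANNTG. RefSeq windows (GRCm38.p6) were found for 6 of the 8 genes. The 250 bases before an annotated start are printed 5′ to 3′ on the gene's strand with E-boxes in capitals. The windows are chr10:62132840-62133089 (+) for Neurog3, chr2:79456637-79456886 (-) for Neurod1, chr13:116309689-116309938 (-) for Isl1 and chr2:147186403-147186652 (-) for Nkx2-2. The Nkx2-2 window lies inside the annotated gene (chr2:147176485-147195434), before an internal start.
Neurog3: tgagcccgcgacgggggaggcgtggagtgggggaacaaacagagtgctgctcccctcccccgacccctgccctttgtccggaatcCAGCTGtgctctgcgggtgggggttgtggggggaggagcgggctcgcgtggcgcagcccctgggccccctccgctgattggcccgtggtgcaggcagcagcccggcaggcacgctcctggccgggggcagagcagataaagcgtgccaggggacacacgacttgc
Neurod1: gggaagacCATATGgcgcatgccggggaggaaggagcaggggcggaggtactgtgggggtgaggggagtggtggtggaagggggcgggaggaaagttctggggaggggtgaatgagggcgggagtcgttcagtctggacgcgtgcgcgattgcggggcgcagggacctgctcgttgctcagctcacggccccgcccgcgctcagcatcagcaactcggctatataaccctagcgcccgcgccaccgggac
Isl1: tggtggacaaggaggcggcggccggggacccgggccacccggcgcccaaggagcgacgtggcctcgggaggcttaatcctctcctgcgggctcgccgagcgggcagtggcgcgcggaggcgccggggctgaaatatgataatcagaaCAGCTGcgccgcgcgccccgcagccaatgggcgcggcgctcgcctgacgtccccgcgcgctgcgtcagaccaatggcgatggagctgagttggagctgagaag
Nkx2-2: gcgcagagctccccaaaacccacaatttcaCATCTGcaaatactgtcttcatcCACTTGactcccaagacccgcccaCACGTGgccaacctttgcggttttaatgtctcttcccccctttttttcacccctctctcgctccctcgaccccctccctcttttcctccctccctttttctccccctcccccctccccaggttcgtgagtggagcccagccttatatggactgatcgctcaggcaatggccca
Neurog3, Neurod1 and Isl1 each held 1 E-box in this window and Nkx2-2 held 3. At least 1 E-box was present in 66.2% of the 32851 windows of the same length. In all, 31.8% held 2 or more and 12.2% held 3 or more. The form CAGATG, searched on both strands, is a special case of the E-box. It was found once, in Nkx2-2, against 14.4% of all windows. The N-box CACNAG, which Hes repressors bind and which was also searched on both strands, was in none of these 4 windows, against 36.7% of all windows. Of Pax6's 2 annotated windows, 1 held a single E-box and a single N-box, and the Rfx6 window held an N-box and no E-box. That Pax6 window and the Rfx6 window also lie inside their genes. These are matches of letters only.

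Signals are MAS5 values on a linear scale, and those under a floor of 86.8, the median over all arrays and non-control probe sets, were raised to it before log2. A difference with 1 array at the floor is written "at least", and a gene at the floor on both arrays has no difference. Between 46.7% and 51.9% of the probe sets lay above the floor on an array. Of the 7 genes, 3 lay above it with MPA at day 6 and 6 with MPA at day 8, against 4, 3 and 6 in the controls at days 5, 6 and 8. Gapdh's 3′ probe set over its 5′ one, which tracks RNA degradation, was 1.31 with MPA and 1.19 in the control at day 6, and 1.57 and 1.55 at day 8, against 1.08 in the day 5 control. The same ratio of Actb was 3.06 and 3.04 at day 6, 2.71 and 2.81 at day 8, and 2.08 in the day 5 control. The pancreatic master gene Pdx1 stayed near the floor, at 90.4 with MPA and 78.6 in the control at day 8, and was at 4.75 or less on the other 3 arrays.

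**Figure D1:**
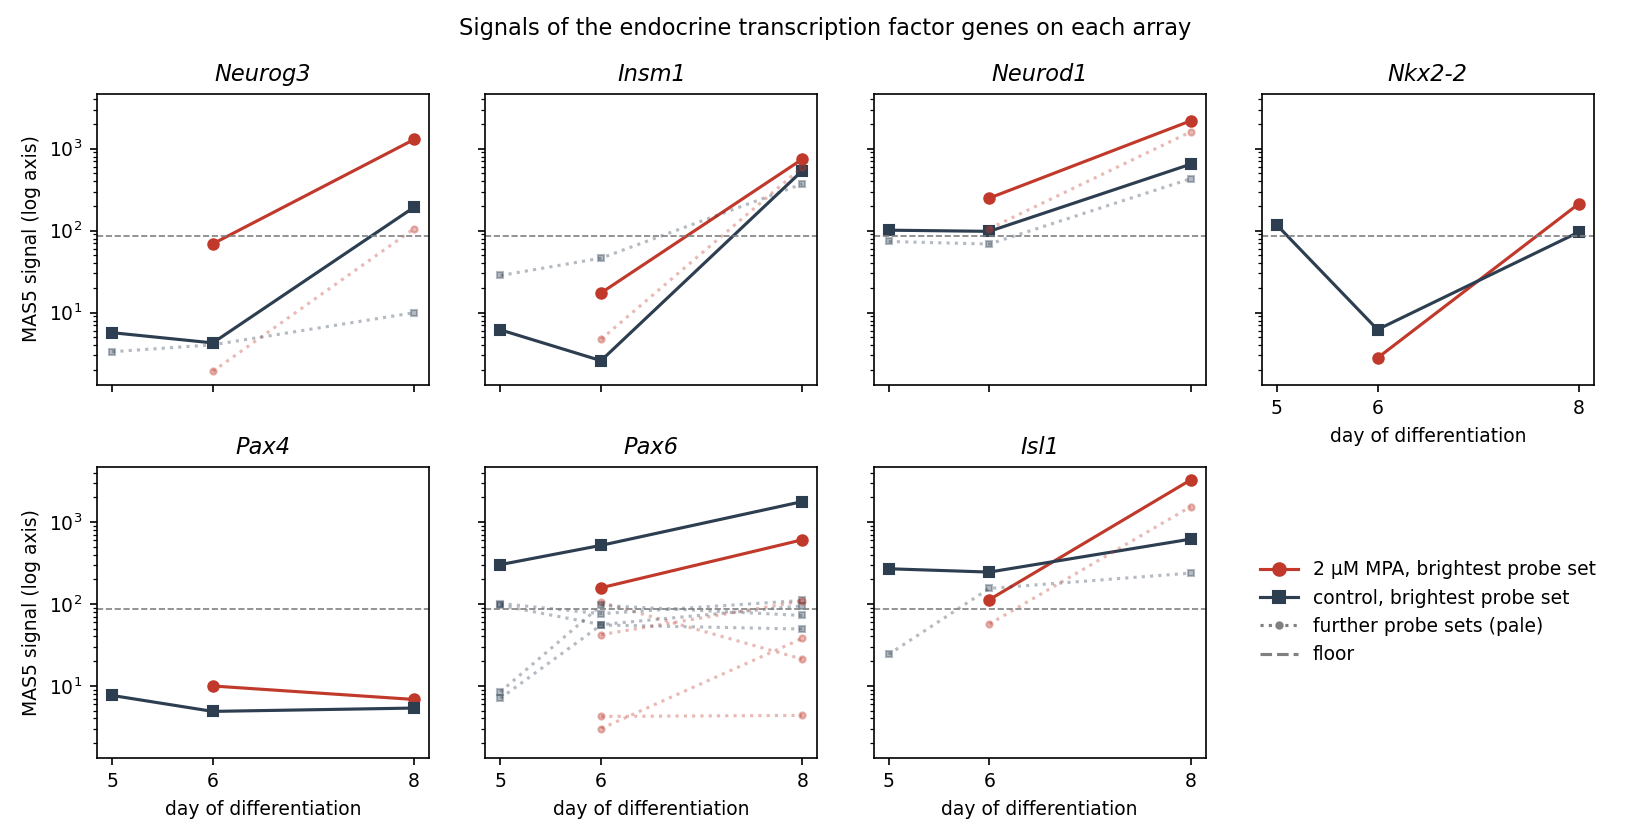
Signal of each gene on a log axis against day of differentiation, with red circles for 2 µM MPA, dark squares for controls, solid lines for the brightest probe set, pale dotted lines for further probe sets, a dashed line at the floor of 86.8, and 1 array per point. Neurog3, Neurod1 and Isl1 lie higher with MPA at day 8, Pax6 lies lower at both days, and Pax4 stays under 10 on every array.

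After 3 days of MPA, Neurog3, Isl1, Neurod1 and Nkx2-2 were at least 2-fold higher than in the day 8 control, Insm1 was 1.38-fold higher, and Pax6 was 2.93-fold lower. Of the 6 genes measured, 4 were thus 2-fold higher, where 3.72% of 12599 measured genes were, and 1 was 2-fold lower, where 3.18% were. Their median log2 difference was 1.45, against -0.02 over all measured genes. The genes were listed with earlier results of these data known, so these values describe the set and do not test it. In these mixed cultures, more or fewer cells of a type cannot be told apart from more or less RNA per cell.

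Neurog3, the gene that commits a progenitor to the endocrine fate, had signals of 69.0 at day 6 and 1295 at day 8 with MPA, against 5.68, 4.27 and 193 in the controls at days 5, 6 and 8. It lay above the floor on both day 8 arrays only. At day 8 it was 6.71-fold higher with MPA, a log2 difference of 2.75 that ranked 5 from the top among 12599 measured genes. Its further probe set was dim, with 106 with MPA and 9.96 in the control at day 8, and went the same way (log2 difference of at least 0.28). Averaged over both probe sets, the log2 difference was 1.52. At day 6 both arrays were at the floor for both probe sets, so no difference is given. The brighter probe set read 69.0 with MPA against 4.27 in the control, and the further one 1.92 against 4.04. With the floor at the 25th percentile of signals, 14.7, Neurog3 counted as 2-fold higher at day 6 as well. On the day 6 arrays a bacterial control target that these cells lack reached 46.6 with MPA, above that floor, and 10.1 in the control.

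Neurod1, a bHLH factor directly downstream of Neurog3, had signals of 249 and 2184 with MPA at days 6 and 8, against 101, 98.0 and 646 in the controls at days 5, 6 and 8. It was above the floor on all 5 arrays, and each MPA array read above the control of its day. It was 2.55-fold higher with MPA at day 6, and 3.38-fold higher at day 8, rank 53 of 12599 measured genes. The further probe set gave 106 and 1604 with MPA, against 73.7, 68.5 and 429 in the controls. There the log2 difference was at least 0.28 at day 6 and was 1.90 at day 8, the same direction with a smaller size at day 6. Averaged over both probe sets, the day 6 difference was 0.82 on the log2 scale, under 2-fold.

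Insm1, a zinc-finger factor needed for the step from progenitor to hormone cell, read 17.4 with MPA at day 6 and 745 at day 8, against 6.16, 2.59 and 539 in the controls. It appeared above the floor at day 8 only, on both arrays. The fold of 1.38 with MPA ranked 1981 from the top among the 12599 genes, and its other probe set gave 595 with MPA and 371 in the control, 1.60-fold. Its MPA difference was the smallest among the 6 genes measured at day 8.

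Nkx2-2, required in mice for beta cells, had 1 probe set, with 2.80 and 213 with MPA at days 6 and 8, against 117, 6.20 and 95.9 in the controls at days 5, 6 and 8. The day 8 control was close to the floor. The gene was 2.22-fold higher with MPA at day 8, and this was under 2-fold, a log2 difference of 0.71, on the scale log2(signal + floor). At day 6 both arrays were at the floor.

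Isl1, which keeps hormone-producing cells alive and differentiating after their birth, was the gene whose MPA difference turned round between the days. Its signals were 112 and 3249 with MPA at days 6 and 8, against 268, 244 and 617 in the controls at days 5, 6 and 8. On this probe set the day 6 MPA array was the lowest of the 5 and the day 8 MPA array the highest. It was 2.17-fold lower with MPA at day 6 and 5.27-fold higher at day 8, rank 11 from the top of 12599. The further probe set read 56.6 and 1531 with MPA, against 24.2, 154 and 237 in the controls, with log2 differences of -0.83 (a bound) and 2.69. Both probe sets thus had opposite directions at the 2 days, and with 1 array per group this change was not tested. The day 6 difference was under 2-fold on the scale log2(signal + floor), at -0.73, and over both probe sets, at -0.98.

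Pax6, a factor of alpha and other islet cells and of the neural tube, went the other way from Neurog3 and Neurod1. Its brightest probe set read 157 and 605 with MPA at days 6 and 8, against 302, 518 and 1770 in the controls at days 5, 6 and 8. Each MPA array lay below the control of its day. The gene was 3.29-fold lower with MPA at day 6, rank 54 from the bottom of 12240 measured genes, and 2.93-fold lower at day 8, rank 104 from the bottom of 12599. The other 4 probe sets were dim, with a highest signal of 110.1. At day 6, 2 of them exceeded the floor on either array, with log2 differences of 0.27 and -0.14, and at day 8 it was 3, with -0.34, -0.13 and 0.32. Averaged over all 5 probe sets, the log2 difference was -0.32 at day 6 and -0.34 at day 8, so the 2-fold size rests on the bright probe set.

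Pax4, a factor of the beta and delta lineages, was at the floor throughout. Its only probe set read 9.96 and 6.82 with MPA at days 6 and 8, against 7.63, 4.88 and 5.35 in the controls, and such values have no order. A bacterial control target that these cells lack reached 59.4.

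**Figure D2:**
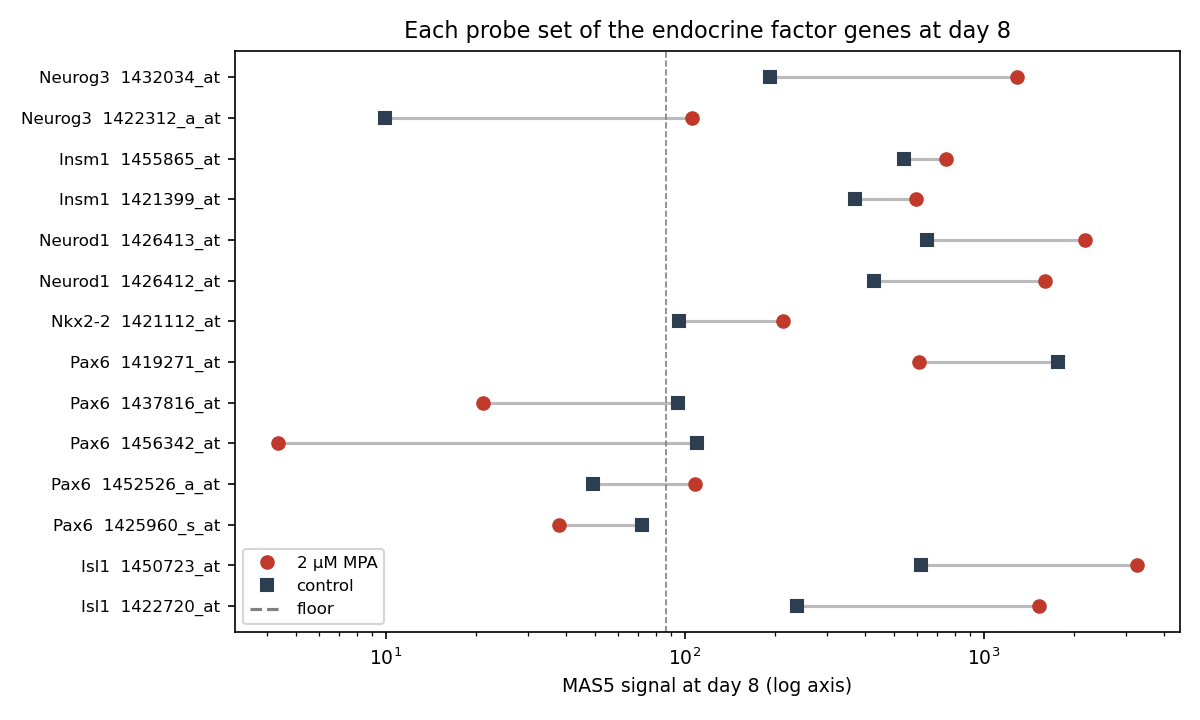
Signal at day 8 on a log axis for each of the 14 probe sets above the floor on any array, with red circles for MPA and dark squares for the control joined by a line, and a dashed line at the floor of 86.8. Both probe sets of Neurog3, Insm1, Neurod1 and Isl1 are higher with MPA, while of the 5 Pax6 probe sets 3 are lower, 1 is higher and 1 is below the floor on both arrays.

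After 1 day of MPA fewer of these genes could be read. Neurod1, Pax6 and Isl1 were measured. Of these 3 genes, 1 was 2-fold higher, where 4.02% of 12240 measured genes were, and 2 were 2-fold lower, where 3.15% were. Their median log2 difference was -1.12, against 0.02 over all measured genes. Neurod1 and Pax6 kept their direction at day 8, and Isl1 did not.

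Without MPA, most of the endocrine factors were higher at day 8 than at days 5 and 6. Of the 6 genes measured, 5 were 2-fold higher at day 8 than at day 5, where 9.61% of 12784 genes were, and 0 were 2-fold lower, where 7.27% were. Neurod1 was 6.38-fold, Insm1 at least 6.22-fold, Pax6 5.87-fold, Isl1 2.30-fold and Neurog3 at least 2.22-fold higher, and Nkx2-2 was 1.22-fold lower. The 3′/5′ ratios were also higher in the day 8 control than at day 5, 1.55 against 1.08 for Gapdh and 2.81 against 2.08 for Actb, and their part in these differences was not tested. From day 5 to day 6, 0 of 4 measured genes were 2-fold higher and 0 lower, where 5.46% and 4.4% of 12611 genes were. There Pax6 was 1.72-fold higher, and Neurod1, Isl1 and Nkx2-2 were 1.03-fold, 1.10-fold and at least 1.35-fold lower. From day 6 to day 8 the same 5 genes were 2-fold higher, where 7.07% of 12824 genes were, and 0 were lower, where 6.43% were. These comparisons share control arrays. With the floor at the 75th percentile, 388, 1 of 4 measured genes was 2-fold higher at day 8 than at day 5. Averaged over probe sets it was 3 of 6. Between the MPA arrays, the day 8 signal was at least 14.9-fold the day 6 signal for Neurog3, 28.9-fold for Isl1, 8.75-fold for Neurod1 and 3.85-fold for Pax6.

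**Figure D3:**
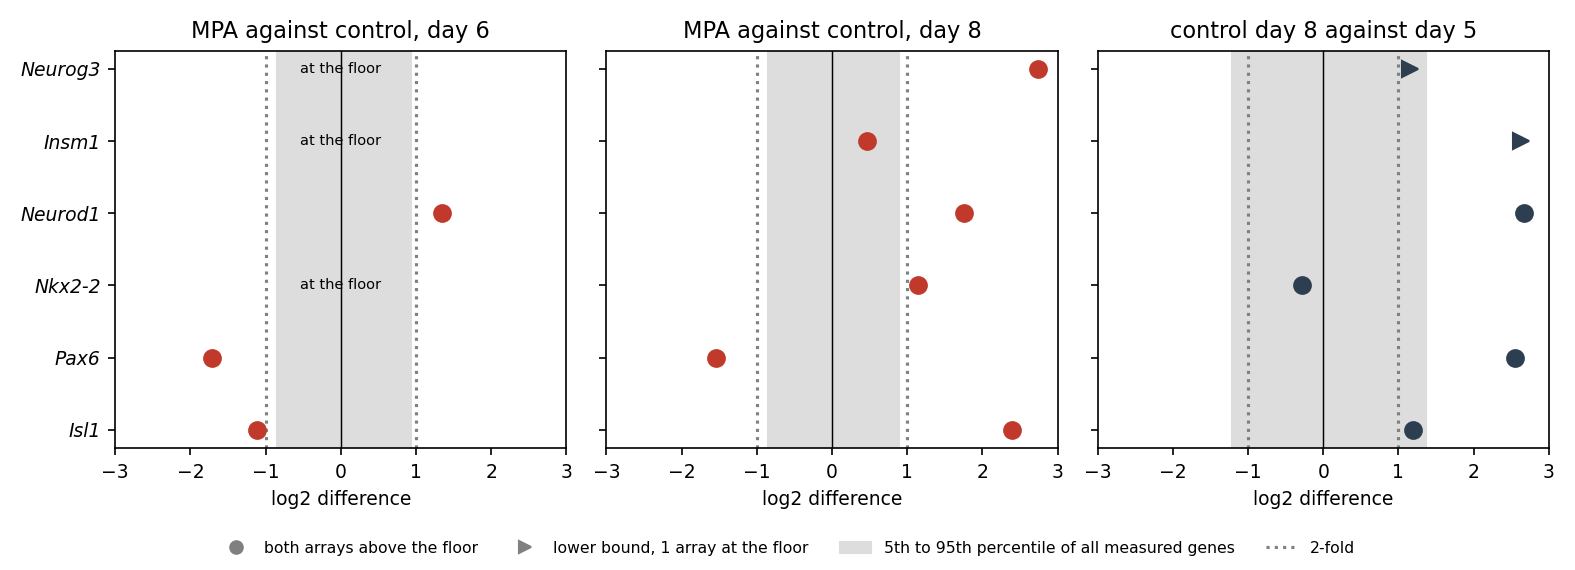
Log2 differences of the 6 genes measured in at least 1 comparison, MPA minus control at day 6 and at day 8 and, in dark, control day 8 minus control day 5. Triangles are lower bounds, grey bands span the 5th to 95th percentile of all measured genes and dotted lines mark 2-fold; Isl1 lies left of the band at day 6 and right of it at day 8.

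The planned test fitted MPA and day over the 4 arrays of days 6 and 8, so that MPA was set against the control of its own day. It asks whether the mean MPA difference departs from 0, with 1 residual degree of freedom. The error is the disagreement between the days, drawn in limma towards that of the other genes tested, so each SE rests partly on them. In limma, 0 of the 6 genes passed an adjusted p of 0.05, as did 0.00862% of 11599 genes, and 2 had an unadjusted p under 0.05, as did 6.37%. These were Neurod1, with a mean log2 difference of 1.55 (SE 0.34, adjusted p = 0.492 in limma, higher at both days), and Pax6, with -1.63 (SE 0.32, adjusted p = 0.492 in limma, lower at both days). Isl1 had 0.64 with an SE of 0.96, as its days opposed each other. Neurog3 had 1.37 (SE 0.64, adjusted p = 0.802 in limma), where the floor sets its day 6 difference to 0.

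Hormones and granule proteins are the products that these factors switch on. Of 35 such genes, 32 were on the array and 21 were measured at day 8. Of the 21, 8 were 2-fold higher with MPA and 2 were 2-fold lower (median log2 difference 0.62). Among all measured genes, 3.72% were 2-fold higher and 3.18% lower at day 8, and 4.02% and 3.15% at day 6. The same shares are the background for the lists below, and all lists were chosen with earlier results of these data known. Gcg, of glucagon, read 2572 with MPA and 271 in the control at day 8, 9.49-fold higher, and was at 36.0 or less on the other arrays. Pyy, of the gut hormone peptide YY, read 2890 with MPA and 764 in the control at day 8, 3.78-fold higher. Chgb and Chga, of the granule proteins chromogranin B and A, were 3.55-fold and 2.38-fold higher, and Sct, of secretin, 3.003-fold. The hormone genes did not all follow. Sst, of somatostatin, read 250 with MPA and 727 in the control at day 8, 2.91-fold lower. Ghrl, of ghrelin, read 3415 with MPA and 2224 in the control, 1.54-fold higher. Ins2, of insulin, stayed near the floor, with 123 and 92.5. At day 6, 3 of 13 measured genes were 2-fold higher and 1 lower (median 0.11), with Sct 5.53-fold and Chga at least 2.45-fold higher.

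Other transcription factors of endocrine cells were listed too. Of 30, 23 were on the array and 19 were measured at day 8, with 1 2-fold higher, 2 lower and a median log2 difference of 0.20. The 1 higher was St18, a zinc-finger factor of endocrine cells, with 585 with MPA and 179 in the control, 3.27-fold. Glis3, a zinc-finger factor of beta cells, was 2.18-fold lower. Foxa2, of endoderm and islets, was 1.62-fold higher at day 6 and 1.93-fold at day 8, and Mnx1, of early pancreas and motor neurons, was 1.24-fold lower and 1.20-fold higher. At day 6, 1 of 11 was 2-fold higher and 0 lower (median -0.01). Of the 18 pancreatic progenitor factors, 17 were measured at day 8, with 4 2-fold higher, 1 lower and a median of 0.36, against 1, 0 and 0.56 over 16 at day 6. Sox9, of the bipotent progenitor that precedes Neurog3, was 1.92-fold higher at day 6 and 2.43-fold at day 8, and the endoderm factor Foxa1 1.51-fold and 2.21-fold. Sox9's further probe set went the other way at day 6, and its day 8 log2 difference was under 2-fold over all its probe sets (0.66) and with the floor at the 75th percentile (0.37). The endoderm factor Sox17, named after its values were seen, was the 1 higher at day 6 (2.23-fold) and the 1 lower at day 8 (3.20-fold), with 8178 and 485 with MPA at days 6 and 8, against 3104, 3670 and 1550 in the controls at days 5, 6 and 8.

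The Notch pathway restrains Neurog3. Of its 20 genes, all measured at day 8, 1 was 2-fold higher with MPA and 3 were 2-fold lower, with a median log2 difference of 0.09. That is 5% and 15%, against 3.72% and 3.18% of all measured genes. At day 6, 1 of 19 was higher and 3 were lower (median -0.22). Hes1, the repressor that binds the Neurog3 promoter, read 1229 and 876 with MPA at days 6 and 8, against 2191, 1427 and 724 in the controls at days 5, 6 and 8, and was 1.16-fold lower and 1.21-fold higher with MPA. Dll1, a ligand carried by Neurog3 cells, was 1.34-fold lower at day 8. Hes5, the Notch target of neural progenitors, had log2 differences of -1.39 at day 6 and -3.23 at day 8, both bounds with MPA at the floor. Nrarp, a feedback regulator, had a bound of -2.53 at day 8. The ligand gene Dll3 was 2.08-fold lower at day 6 and 2.10-fold higher at day 8. The receptor gene Notch1, named after its values were seen, went the opposite way. It read 735 and 217 with MPA at days 6 and 8, against 661, 245 and 709 in the controls at days 5, 6 and 8, and was 3.002-fold higher and then 3.28-fold lower with MPA.

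Since several of the factors also mark neurons and heart progenitors, markers of these cells are given beside them. Of 25 neural markers on the array, 20 were measured at day 8, and 12 were 2-fold lower with MPA and 0 higher (median -1.59). Over all measured genes, 3.18% were lower and 3.72% higher. At day 6, 6 of 17 were lower and 0 higher (median -0.69). Their summed signal was 7830 and 8297 with MPA at days 6 and 8, against 16360, 14589 and 27268 in the controls at days 5, 6 and 8. Pax6 and this sum were both lower with MPA than in the control at either day. Pax6 was higher with MPA at day 8 than in the controls at days 5 and 6, and the sum was lower. Bright genes weigh most in this sum, such as Stmn2 with 7697 in the day 5 control and Irx3 with 5478 in the day 6 control. Zic1, of the dorsal neural tube, was 21.7-fold lower at day 8 and the proneural gene Neurog1 at least 17.96-fold. Tubb3, a neuronal tubulin gene, was 1.18-fold lower, with 447 with MPA and 527 in the control. The part of neural cells in the Pax6 difference was not tested.

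Cardiac and second heart field markers, of which 18 were on the array, were read as well. At day 8, 2 of 13 measured genes were 2-fold higher with MPA and 0 lower (median 0.89). Over all measured genes, 3.72% were higher and 3.18% lower. At day 6 it was 0 higher and 1 of 7 lower (median -0.57). Their summed signal was 749 and 8985 with MPA at days 6 and 8, against 1149, 1291 and 3927 in the controls. Like Isl1's brightest probe set, it was lowest with MPA at day 6 and highest with MPA at day 8. Isl1's further probe set was lowest in the day 5 control. Of the 18 cardiac genes, 3 lay above the floor with MPA at day 6. Of the 8985, Actc1 gave 4373 and Myh7 1761. At day 8, 9 of the 13 genes were higher with MPA and 4 were lower. The 4 were Mef2c, Tbx5, Hand1 and Ryr2, each with MPA at the floor. Among the higher genes, Tbx20, Myl4 and Fgf10 had the control at the floor, with 47.3, 43.3 and 74.1. The median of 0.89 is the value of Tbx20 and so a bound. Actc1, of cardiac actin, had log2 differences of -0.89 (a bound) at day 6 and 1.82 at day 8. Nkx2-5, a defining factor of heart progenitors, was at the floor on both day 8 arrays, with 78.9 with MPA and 8.49 in the control. The part of heart progenitors in the Isl1 difference was not tested.

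**Figure D4:**
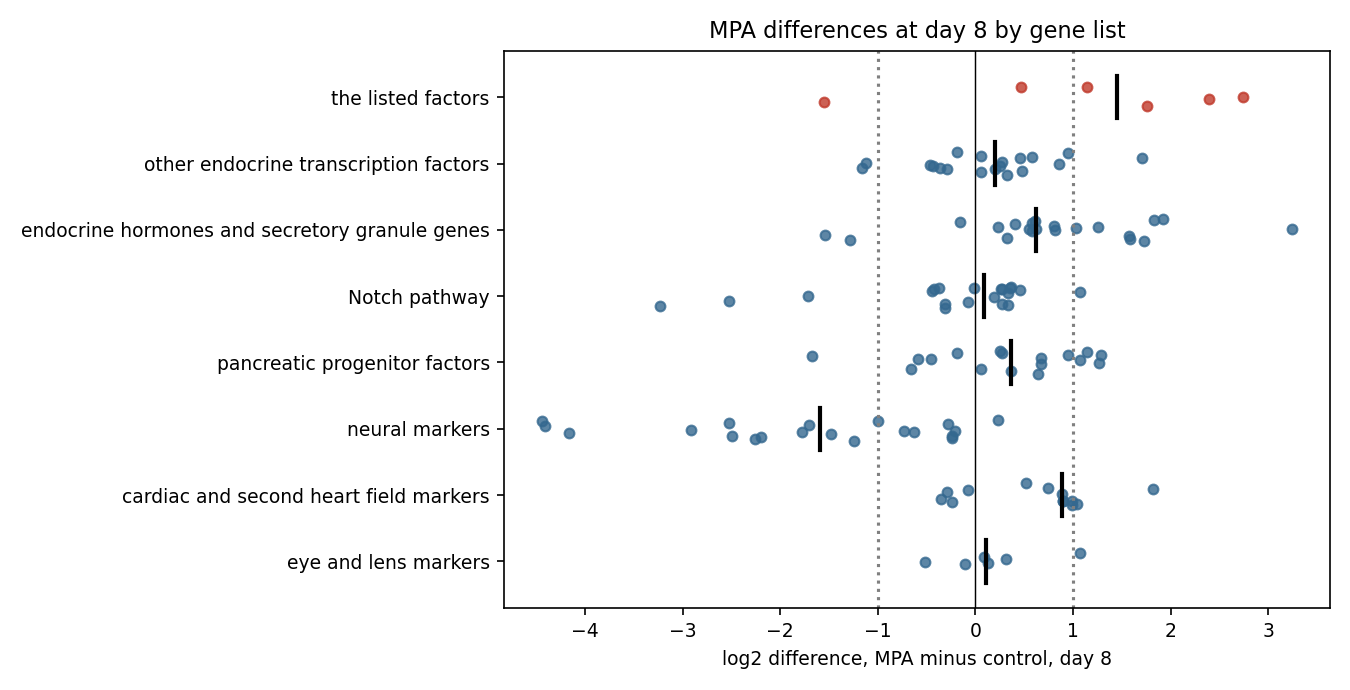
Log2 difference, MPA minus control at day 8, of every measured gene in the transcription factor set (red, 6 genes) and in 7 comparison lists (blue), with a black bar at each median, 1 point per gene and random vertical scatter. The factors have a median of 1.45, hormone and granule genes 0.62, cardiac markers 0.89 and neural markers -1.59. The set and the lists were chosen with earlier results of these data known.

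Profiles over the 5 arrays were also compared by the distance between log2 signals centred on each gene's mean, among 12080 genes above the floor on at least 2 arrays. The gene nearest to Neurog3 was Chgb (distance 0.70), followed by Pcp4 (0.72) and Sorbs2 (0.75), and Isl1 stood at rank 11. Nearest to Isl1 was Cxcl12 (0.44), a chemokine gene, with log2 differences under MPA of -1.32 (a bound) at day 6 and 2.85 at day 8, followed by Myrf (0.93), Chgb (1.06) and, at rank 4, Neurog3 (1.07). Neurod1 lay nearest to Klf4 (0.61), Onecut2 (0.64) and Nexn (0.70). With MPA at day 8, Onecut2, an endoderm factor gene, was 2.41-fold higher and Nexn 2.33-fold higher. The distance of Neurod1 to Neurog3 was 1.45, rank 35. Insm1 lay nearest to Aldh1a1 (0.40) and the heart gene Nppa (0.41). Pax6 lay nearest to Dtx4 (0.63), Tmem132c (0.72) and Vegfc (0.74), with Neurog3 at rank 10895. Nkx2-2, near the floor, lay nearest to Clock (0.15). Neurog3, Chgb, Insm1 and Nppa were above the floor on the day 8 arrays only. The nearness of Neurog3 to Chgb and of Insm1 to Nppa therefore rests on those arrays. With 5 points per profile, these distances describe the arrays only.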

How the data were processed

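Expression was measured in 5 samples, 1 array each, from 100 ng of total RNA by 3′ IVT labelling, per the labels' protocols. The deposited values are linear intensities per probe set, made with MAS5 per the submitters' processing notes. The MAS5 version is not given in the sources used here. Each array had a 2% trimmed mean of 500. Of 45101 probe sets, 64 controls were left out, 34945 had 1 gene symbol, 932 several and 9160 none in the annotation given. Low MAS5 signals vary widely once put on a log scale.

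The median of all non-control signals (86.8) was the floor before log2, and genes at least 2-fold apart were counted. limma 3.58.1 (R 4.3.3; trend, robust, Benjamini-Hochberg) fitted MPA and day on genes exceeding the floor on 2 or more of 4 arrays, and was tested on simulated data. Its error is the disagreement between days, drawn towards that of the other genes tested, and not the spread between cultures. Other steps used Python 3.11.15.

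The genes and 7 comparison lists (155 genes, 140 on the array) were chosen with earlier results of these data known: other endocrine transcription factors, hormone and granule genes, Notch pathway, pancreatic progenitor factors, and neural, cardiac, and eye and lens markers. Named genes were all of the listed factors, the 4 genes of a list that differed most with MPA (mean of both days), the 4 that differed most between control days 8 and 5, the 3 nearest profiles, and 22 set by name, of which some are printed. Promoters came from RefSeq (GRCm38.p6). Alternatives were other scalings, floors, scales, probe set rules and fits.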

Additional observations from a re-analysis of the deposited data

Results flagged for a closer look

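Isl1 was singled out because its MPA difference had opposite directions at the 2 days: the log2 difference, MPA minus control, was -1.12 at day 6 and 2.40 at day 8. Both of its probe sets showed this, and with 1 array per group the difference between the days was not tested. Isl1's day 6 difference was under 2-fold on the scale log2(signal + floor) and over both probe sets. Of the factors, only Neurod1, Pax6 and Isl1 were measured at both days. The turn was not particular to Isl1: Notch1, Sox17, Dll3 and Cxcl12 were also 2-fold apart in opposite directions.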

How the results depend on the processing

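The limma fit already pairs MPA and control by day, and without the day term 0 factors passed as well. Each difference of the 6 factors was recomputed under up to 7 alternatives: of 165 values for 25 differences, 142 kept the side of 2-fold, 20 were no longer 2-fold, 3 became 2-fold, and 0 of the 2-fold ones changed sign. Isl1's difference of -0.13 from control day 5 to day 6 ran from -0.18 to 0.35. At day 8 the count of 4 factors 2-fold higher with MPA stayed within 1.5 times under the alternatives, and the 1 lower (Pax6) became 0 with the mean over probe sets. At day 6 the 1 higher became 2 with the floor at the 25th percentile, and 0 with the floor at the 75th percentile, on log2(signal + floor) and with the mean over probe sets. The 2 lower became 0, 1 and 0 under these last 3. For control day 8 against day 5, the 5 higher became 1 with the floor at the 75th percentile and 3 with the mean over probe sets. For day 8 against day 6 they became 1 and 2. For day 6 against day 5, the 0 lower became 1 (Nkx2-2) with the floor at the 25th percentile and on log2(signal + floor). Higher floors leave fewer genes measured. In limma 0 factors passed under all 11 alternatives, with 0 to 3 at an unadjusted p under 0.05 and a lowest adjusted p of 0.419 to 1. The same alternatives were applied to 179 differences of the other named genes, a step chosen after seeing the data. Of these, 10 changed sign under at least 1 alternative, and 1 of the 10 had been 2-fold: Cryab, control day 8 against day 5, at -0.0747 without probe sets named _s_at, _x_at or _a_at, against 2.54. The cause was not tested. The 2-fold counts of the lists moved as well. At day 8 with MPA they ran from 4 to 13 higher and 0 to 5 lower for hormone and granule genes (8 and 2 in the report), 0 to 4 and 0 to 4 for other endocrine factors (1 and 2), 1 to 5 and 0 to 4 for pancreatic progenitor factors (4 and 1), 0 to 4 and 1 to 3 for the Notch pathway (1 and 3), 0 to 1 and 6 to 14 for neural markers (0 and 12), 1 to 6 and 0 to 4 for cardiac markers (2 and 0), and 0 to 3 and 0 to 2 for eye and lens markers (1 and 0). Signals at the floor leave Neurog3, Insm1 and Nkx2-2 without a difference at day 6, and Pax4 at both days.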

Other observations

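Eye and lens markers, which share Pax6 with the endocrine set, are given for comparison. Of 11 on the array, 6 were measured at each day. At day 8, 1 was 2-fold higher and 0 lower with MPA (median log2 difference 0.11). At day 6, 1 was higher and 1 lower (median 0.29). Over all measured genes, 3.72% were higher and 3.18% lower at day 8, and 4.02% and 3.15% at day 6. Their summed signal was 1435 and 2990 with MPA at days 6 and 8, against 5312, 1070 and 2433 in the controls at days 5, 6 and 8. The 1 higher at day 6 was Cryab, a crystallin gene also expressed outside the lens, with 670 with MPA and 324 in the control. The 1 higher at day 8 was Prox1, which also belongs to pancreatic progenitors and which read 171 and 357 with MPA at days 6 and 8, against 163, 21.9 and 170 in the controls. Otx2, of the forebrain, eye and early epiblast, was at 188 and 2.71 with MPA at days 6 and 8, against 4336, 136 and 58.4 in the controls at days 5, 6 and 8.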
